A study of Homo sapiens with 12 samples.

Results

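Alcohol and aldehyde dehydrogenases were followed as 10 named genes, ADH1A, ADH1B, ADH1C, ADH4, ADH5, ADH6, ALDH2, ALDH1B1, ALDH3A2 and ALDH1L1, out of 58735 genes in the deposited expression table. The cells were enterocytes, the absorptive cells of the gut lining, differentiated from RPChiPS771, a human induced pluripotent stem cell line. In the last stage of the protocol, from day 15 to day 23, cultures received vitamin D3 (VD3) at 1 µM, valproic acid (VPA) at 100 µM, both compounds at these doses (VD3VPA) or neither (Control), with 3 libraries in each of the 4 groups. All 12 libraries share the single cell line and the differentiation protocol, so the groups describe cells of 1 genetic background. Valproic acid inhibits histone deacetylases, vitamin D3 acts through the vitamin D receptor after conversion to its hormone, and the series was made to show how the compounds affect differentiation. Whether the 3 libraries of each group were separate cultures is not stated, so p-values speak only of the scatter among these libraries, part of which could be technical.

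Alcohol dehydrogenases oxidise alcohols to aldehydes with NAD+, and aldehyde dehydrogenases oxidise the aldehydes to acids. Ethanol becomes acetaldehyde through cytosolic alcohol dehydrogenases and then acetate, mainly through mitochondrial ALDH2, and most of this takes place in the liver, with a first pass in the gut wall. The same families clear retinol and retinal, lipid aldehydes and formaldehyde. ADH1A, ADH1B and ADH1C encode the class I enzymes, ADH4 the class II enzyme and ADH5 the class III enzyme, which removes formaldehyde bound to glutathione. ALDH1B1 is a mitochondrial relative of ALDH2, ALDH3A2 oxidises long-chain fatty aldehydes at the endoplasmic reticulum, and ALDH1L1 oxidises formyl-tetrahydrofolate in the cytosol.

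The 6 alcohol dehydrogenase genes lie on chromosome 4 of GRCh38, all on the minus strand, within 282050 bases. From the lowest coordinate the order is ADH5 (chr4:99070978-99088801), ADH4 (chr4:99123657-99157792), ADH6 (chr4:99202638-99219537), ADH1A (chr4:99276367-99291028), ADH1B (chr4:99304964-99352760) and ADH1C (chr4:99336492-99353027). The aldehyde dehydrogenase genes are dispersed, with ALDH2 at chr12:111766887-111817529, ALDH1B1 at chr9:38392664-38398661, ALDH3A2 at chr17:19648136-19677598 and ALDH1L1 at chr3:126103562-126197994. ALDH1B1 has 2 exons, of which 1 holds the whole coding sequence, while the main ALDH2 transcript has 13 coding exons. The coding sequences of ALDH2 and ALDH1B1 were identical at 73.2% of 1539 aligned bases.

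The 3 class I genes are near copies of each other, which bears on whether their reads can be told apart. Their coding sequences, each 1125 bases, were identical at 94.9% of positions between ADH1A and ADH1B, at 93.9% between ADH1A and ADH1C and at 95.6% between ADH1B and ADH1C, and 87 positions differed among the 3. The first 90 coding bases (GENCODE release 29 transcripts) are shown because they hold only 3 of these positions, given in capitals.
ADH1A: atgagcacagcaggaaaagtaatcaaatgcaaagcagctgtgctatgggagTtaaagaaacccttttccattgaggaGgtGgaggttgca
ADH1B: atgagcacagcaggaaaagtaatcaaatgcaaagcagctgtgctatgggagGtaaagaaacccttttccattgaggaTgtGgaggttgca
ADH1C: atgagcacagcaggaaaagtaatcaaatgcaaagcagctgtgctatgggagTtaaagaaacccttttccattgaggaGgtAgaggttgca
Over longer stretches the copies separate. Of the 50-base windows in the coding sequence, 24.6% in ADH1C and 34.3% in ADH1B were also present in another class I gene, and for 100-base windows the shares were 6.92% in ADH1C and 7.41% in ADH1B. In addition, the annotation of ADH1B overlaps that of ADH1C on the same strand, with 103 shared exon bases that make up 5.54% of the ADH1C exon length. How reads that match several genes were treated is not given in the sources used here, so the split of class I reads is uncertain.

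Levels are given as FPKM, fragments per kilobase of gene length, scaled by 1 constant per library. The gene length covers all annotated exons of a gene and can far exceed its main transcript. It was 13712 bases against 3179 for ALDH1L1, 6457 against 3928 for ALDH3A2, 4866 against 2615 for ADH5 and 9720 against 9569 for ALDH2. Levels, sums and ranks set between genes therefore depend on this length, while folds of a gene between groups do not. Fragment numbers recovered from the FPKM ran from 32160289 to 43998467 per library, and the deposited scaling did not follow these totals exactly. Comparisons used limma on log2(FPKM + 1) across 12578 genes that reached 1 FPKM in at least 3 libraries, and an adjusted p under 0.05 over all of these genes counts as a change. Log2 differences and their standard errors (SE) refer to log2(FPKM + 1), where changes of low genes appear too small. Folds are ratios of group mean FPKM. With each library scaled to its own fragment total, the median log2 difference of all tested genes moved by -0.096 for VPA against Control. The shift was -0.060 for VD3 and -0.032 for VD3VPA against Control, so calls of small changes can depend on the scaling. Between 34.7% and 64.2% of tested genes changed in the 5 comparisons of 2 groups, so a change in a member is a common event here. Relative to Control, 31.3% of tested genes were higher and 31.2% lower in VD3, 29.6% higher and 23.1% lower in VPA, and 31.1% higher and 33.1% lower in VD3VPA.

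All 11 listed enterocyte markers reached 1 FPKM in at least 3 libraries, SI in Control alone. Their summed level was 4571 to 6778 FPKM in VD3, 4418 to 5192 FPKM in VPA, 5835 to 6944 FPKM in VD3VPA and 1406 to 1692 FPKM in Control libraries, but APOA4 made up 73.2% to 82.7% of the sum in treated and 34.7% to 51.5% in Control libraries. Of the 10 besides SI, VD3 raised 6 and lowered 2, VPA raised 6 and lowered 0, and VD3VPA raised 4 and lowered 3 relative to Control, and SI, the sucrase, averaged 0.231 FPKM in VD3, 0.114 FPKM in VPA, 0.105 FPKM in VD3VPA and 1.15 FPKM in Control. All 12 listed hepatocyte markers were also present, at a sum of 38362 to 41358 FPKM in VD3, 37804 to 44050 FPKM in VPA, 35513 to 40455 FPKM in VD3VPA and 38642 to 39823 FPKM in Control libraries, of which the fetal protein AFP made up 56.2% to 76.2%. The markers did not move as 1 group: VD3 raised 6 and lowered 2 of the 12 relative to Control, VPA raised 2 and lowered 7, and VD3VPA raised 6 and lowered 3. The fibrinogen gene FGB had 3371 FPKM in VD3, 265 FPKM in VPA, 2765 FPKM in VD3VPA and 633 FPKM in Control, and albumin (ALB) had 1354 FPKM in VD3, 509 FPKM in VPA, 1190 FPKM in VD3VPA and 1499.6 FPKM in Control. The part of hepatocyte-like transcription in the levels below was not tested, and in bulk RNA fewer cells of a type and less RNA per cell cannot be told apart. Of 9 gastric markers, 2 were tested, and both were lower in each treated group than in Control. TFF1 had 37.4 FPKM in VD3, 15.6 FPKM in VPA, 17.6 FPKM in VD3VPA and 85.5 FPKM in Control, and TFF2 had 13.6 FPKM in VD3, 27.2 FPKM in VPA, 12.5 FPKM in VD3VPA and 39.97 FPKM in Control, while ADH7, GKN1 and GKN2 were at 0 in every library.

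Of the 10 genes, 7 passed the filter, and ADH1A, ADH1B and ADH6 did not. ADH1C passed only through the VPA group, the single group in which it reached 1 FPKM, so for this gene a difference was built into the selection. Its tests below are therefore taken from the fit without a filter, over 36483 genes, and it is left out of the counts of changed members. For VPA against Control the SE of ADH1C was 0.0463 in that fit and 0.0691 in the filtered fit. The smaller SE came with the wider set of genes and is not added evidence.

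The class I genes ADH1A and ADH1B, which make the main liver alcohol dehydrogenases, had no fragment in any of the 12 libraries. At the depth of single libraries this allows up to 0.0281 to 0.0434 FPKM of ADH1A and up to 0.00588 to 0.00909 FPKM of ADH1B, taking 3 fragments as the limit that a count of 0 allows. ADH6, which encodes the class V enzyme, had 1 to 10 fragments per library and 47 in all. Its level was 0.0424, 0.0116 and 0.0482 FPKM in VD3 libraries, 0.0191, 0.00742 and 0.00643 FPKM in VPA libraries, 0.00668, 0.00584 and 0.0605 FPKM in VD3VPA libraries, and 0.0270, 0.0240 and 0.0319 FPKM in Control libraries. The ADH6 levels of the 4 groups overlapped except between VPA and Control, where the 5 fragments in VPA against 15 in Control gave a ratio of 0.406 with an exact 95% counting interval of 0.115 to 1.18. These intervals and limits cover counting error only.

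ADH1C, the class I gene of the adult gut and stomach as well as liver, was the class I transcript that was found, and it was highest in VPA. It had 0, 0.110 and 0.0326 FPKM in VD3 libraries, 1.10, 1.04 and 1.05 FPKM in VPA libraries, 0.0632, 0.0414 and 0.0286 FPKM in VD3VPA libraries, and 0.351, 0.329 and 0.315 FPKM in Control libraries. The VPA libraries lay above all others, and those with VD3, alone or with VPA, lay below Control. The sums over 3 libraries were 10 fragments in VD3, 201 in VPA, 9 in VD3VPA and 76 in Control. VPA gave a ratio of 3.22 to Control (exact 95% counting interval 2.46 to 4.25; log2 difference 0.63, SE 0.0463, limma without a filter, adjusted p 1.15e-05). VD3 gave a ratio of 0.156 to Control, with an interval of 0.0720 to 0.303 (log2 difference -0.35, limma without a filter, adjusted p 0.000285). With both compounds the ratio to Control was 0.133, with an interval of 0.0584 to 0.265 (log2 difference -0.35, limma without a filter, adjusted p 0.000225), and the ratio to VPA alone was 0.0412, with an interval of 0.0185 to 0.0797. The ratio of VD3VPA to VD3 alone was 0.849 with an interval of 0.305 to 2.33. Both groups held few fragments, and these intervals cover counting error only, not the scatter among libraries.

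ADH4, the class II enzyme, which oxidises ethanol at high concentrations and is known as a liver gene, was lower in the groups with VD3. It had 0.735, 0.957 and 0.952 FPKM in VD3 libraries, 3.50, 3.37 and 2.02 FPKM in VPA libraries, 0.970, 0.754 and 0.716 FPKM in VD3VPA libraries, and 4.38, 3.55 and 3.02 FPKM in Control libraries. All 6 libraries with VD3 were below 1 FPKM and below all 6 without it, and the VPA and Control libraries overlapped. VD3 lowered ADH4 4.14-fold relative to Control (0.882 ± 0.127 FPKM in VD3 and 3.65 ± 0.686 FPKM in Control, SD, n = 3 each; log2 difference -1.30, SE 0.147, limma adjusted p 1.34e-05). VD3VPA lowered it 4.49-fold relative to Control (log2 difference -1.35, limma adjusted p 8.26e-06) and 3.64-fold relative to VPA (log2 difference -1.11, limma adjusted p 4.34e-05). For VPA alone the log2 difference from Control was -0.24 (SE 0.147), which did not pass the threshold (limma adjusted p 0.188), and it did so only with voom on recovered fragments (log2 difference -0.44, adjusted p 0.0348), where the median of all genes stood at -0.11.

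ADH5, the formaldehyde-clearing enzyme of nearly all cells, made up most of the alcohol dehydrogenase transcripts. It had 23.8, 23.1 and 23.8 FPKM in VD3 libraries, 22.4, 23.2 and 20.6 FPKM in VPA libraries, 30.4, 26.7 and 28.0 FPKM in VD3VPA libraries, and 25.4, 23.8 and 23.03 FPKM in Control libraries. The VD3VPA libraries were above those of every other group, and the other 3 groups overlapped. VD3VPA raised ADH5 1.18-fold relative to Control (log2 difference 0.23, SE 0.0577, limma adjusted p 0.00462), 1.21-fold relative to VD3 (log2 difference 0.26, adjusted p 0.0053) and 1.29-fold relative to VPA (log2 difference 0.35, adjusted p 0.000246). The log2 difference was -0.03 for VD3 (limma adjusted p 0.673) and -0.12 for VPA (adjusted p 0.0964) relative to Control. The VPA value passed the threshold under 3 other ways of scaling the libraries. It was -0.19 with equal FPKM sums (limma adjusted p 0.0033), -0.24 with own fragment totals (adjusted p 0.00142) and -0.26 with voom (adjusted p 0.000729). The median of all genes moved the same way, to -0.04, -0.08 and -0.11 in these settings, from 0.01 in the main fit.

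ALDH2, the mitochondrial enzyme that turns acetaldehyde into acetate, was higher in every treated group. It had 30.3, 29.2 and 29.9 FPKM in VD3 libraries, 26.6, 29.4 and 25.1 FPKM in VPA libraries, 30.4, 28.2 and 28.6 FPKM in VD3VPA libraries, and 20.7, 19.4 and 21.6 FPKM in Control libraries. No treated library came down to the level of a Control library. The rise over Control was 1.45-fold in VD3 (log2 difference 0.52, SE 0.0585, limma adjusted p 1.37e-05), 1.32-fold in VPA (log2 difference 0.38, adjusted p 0.000243) and 1.41-fold in VD3VPA (log2 difference 0.48, adjusted p 2.14e-05). The treated groups overlapped, with log2 differences of -0.04 between VD3VPA and VD3 (limma adjusted p 0.67) and 0.10 between VD3VPA and VPA (adjusted p 0.151). The comparison of VD3VPA with VPA passed the threshold when VPA replicate 2 was left out (0.16, limma adjusted p 0.0274). It also passed under 3 other scalings, at 0.14 with equal FPKM sums (limma adjusted p 0.0195), 0.18 with own fragment totals (adjusted p 0.00539) and 0.19 with voom (adjusted p 0.00384). Under these scalings the median of all genes stood at 0.0029, 0.040 and 0.053, against -0.025 in the main fit.

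ALDH1B1, the mitochondrial relative of ALDH2 that also takes acetaldehyde and retinal, moved the other way, and its log2 difference, on the log2(FPKM + 1) scale, was the largest of the tested members in each comparison with Control. It had 3.44, 3.46 and 2.44 FPKM in VD3 libraries, 5.50, 4.95 and 4.81 FPKM in VPA libraries, 2.38, 2.65 and 2.61 FPKM in VD3VPA libraries, and 11.9, 10.1 and 10.7 FPKM in Control libraries. The Control libraries were the highest, the VPA libraries came next without overlap, and the VD3 and VD3VPA libraries overlapped at the bottom. ALDH1B1 was 3.51-fold lower in VD3 than in Control (3.11 ± 0.581 FPKM in VD3 and 10.9 ± 0.945 FPKM in Control, SD, n = 3 each; log2 difference -1.54, SE 0.0956, limma adjusted p 1.2e-07). It was 2.15-fold lower in VPA than in Control (log2 difference -0.97, adjusted p 8.84e-06) and 4.29-fold lower in VD3VPA than in Control (log2 difference -1.75, limma adjusted p 3.18e-08). VD3VPA was 1.997-fold lower than VPA (log2 difference -0.78, limma adjusted p 2.39e-05). Relative to VD3, VD3VPA had a log2 difference of -0.20 that did not pass (limma adjusted p 0.122), and VD3 replicate 3, the lowest of its group, decided this, since the value was -0.33 without it (adjusted p 0.00645).

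ALDH3A2, the fatty aldehyde dehydrogenase whose loss causes Sjögren-Larsson syndrome, was lower with VPA alone. It had 11.5, 9.96 and 10.3 FPKM in VD3 libraries, 8.51, 8.36 and 7.28 FPKM in VPA libraries, 10.7, 9.77 and 10.2 FPKM in VD3VPA libraries, and 10.5, 11.4 and 10.7 FPKM in Control libraries. The VPA libraries were below all others, and the VD3, VD3VPA and Control libraries overlapped. VPA lowered ALDH3A2 1.35-fold relative to Control (log2 difference -0.40, SE 0.0656, limma adjusted p 0.000405). VD3VPA was 1.27-fold higher than VPA (log2 difference 0.31, adjusted p 0.0014), and relative to Control the log2 difference was -0.08 in VD3VPA (limma adjusted p 0.289) and -0.04 in VD3 (adjusted p 0.646).

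ALDH1L1, which oxidises formyl groups of folate to carbon dioxide and is strong in liver, was higher with VPA alone. It had 4.91, 4.35 and 4.98 FPKM in VD3 libraries, 10.1, 9.72 and 9.85 FPKM in VPA libraries, 5.81, 5.41 and 5.22 FPKM in VD3VPA libraries, and 6.23, 5.11 and 4.52 FPKM in Control libraries. The VPA libraries were above all others, and the highest other library, of Control, had 6.23 FPKM. VPA raised ALDH1L1 1.87-fold relative to Control (9.88 ± 0.174 FPKM in VPA and 5.29 ± 0.869 FPKM in Control, SD, n = 3 each; log2 difference 0.80, SE 0.0838, limma adjusted p 1.35e-05), and VD3VPA was 1.80-fold lower than VPA (log2 difference -0.75, adjusted p 1.11e-05). Relative to Control, the log2 difference was 0.05 in VD3VPA (limma adjusted p 0.61) and -0.12 in VD3 (adjusted p 0.226), and the VD3 value passed the threshold without Control replicate 3 (-0.21, adjusted p 0.0331) and with voom (-0.22, adjusted p 0.0385). The log2 difference of VD3VPA from VD3 was 0.17 (limma adjusted p 0.133) and passed without Control replicate 1 (0.17, adjusted p 0.0346) and with voom (0.25, adjusted p 0.0381). With voom the median of all genes stood at -0.08 for VD3 against Control and at 0.05 for VD3VPA against VD3. The antisense gene ALDH1L1-AS2 shares 233 exon bases with ALDH1L1, 1.70% of its exon length, and the strand setting of the counting is not given in the sources used here. Its own level was 0.962 FPKM in VD3, 1.46 FPKM in VPA, 1.14 FPKM in VD3VPA and 0.819 FPKM in Control, also highest in VPA.

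**Figure D1:**
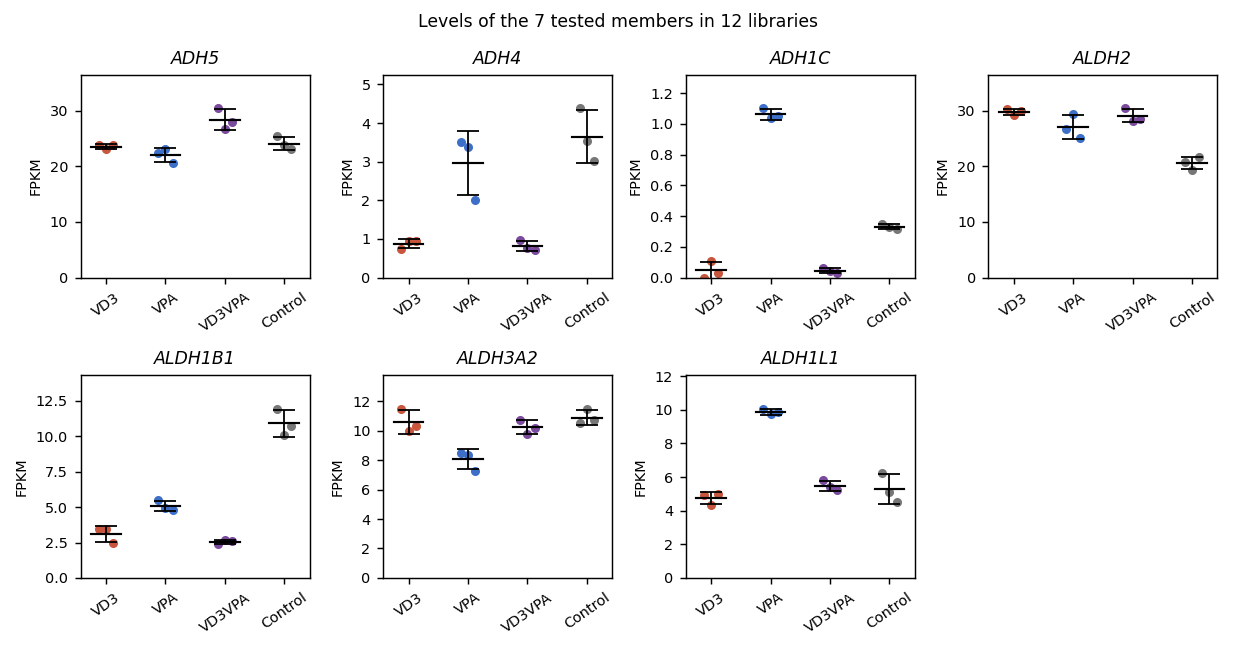
FPKM (vertical axes, from 0) of the 7 tested genes in the 3 libraries of VD3, VPA, VD3VPA and Control; points are libraries, long bars the group means and error bars the SD. ALDH1B1 and ADH4 are low in both groups with VD3, ADH1C and ALDH1L1 are high in VPA alone at about 1.06 and 9.88 FPKM, and ALDH2 is higher in all 3 treated groups than in Control.

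The counts of changed members stand beside the share of all tested genes that changed. Among the 6 tested members other than ADH1C, VD3 changed 3 relative to Control, ALDH2 upwards and ADH4 and ALDH1B1 downwards, where 62.5% of all tested genes changed, 31.3% upwards and 31.2% downwards. VPA changed 4, with ALDH2 and ALDH1L1 higher and ALDH1B1 and ALDH3A2 lower, where 52.7% of all tested genes changed, 29.6% upwards and 23.1% downwards. Of those genes 56.2% were higher in VPA, a share that was 44.0% with equal FPKM sums, 36.5% with own fragment totals and 36.4% with voom. VD3VPA changed 4 relative to Control, with ADH5 and ALDH2 higher and ADH4 and ALDH1B1 lower, where 64.2% of all tested genes changed, 31.1% upwards and 33.1% downwards. Relative to VPA, VD3VPA changed 5, with ADH5 and ALDH3A2 higher and ADH4, ALDH1B1 and ALDH1L1 lower, where 63.3% of all tested genes changed, 28.6% upwards and 34.7% downwards. Relative to VD3, VD3VPA changed 1, ADH5, where 34.7% of all tested genes changed, 17.5% upwards and 17.2% downwards. The count was 2 without Control replicate 1, without VD3 replicate 3 and with voom. These comparisons share libraries and are not independent of each other.

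Whether the VPA effect differed with VD3 present was tested by the interaction, the VPA effect with VD3 minus the VPA effect without it. It passed the threshold for 5 of the 6 tested members other than ADH1C, where 44.3% of all tested genes passed, 19% with a positive and 25.3% with a negative value. Of those genes 43.0% had a positive interaction, a share that was 55.8% with equal FPKM sums, 67.1% with own fragment totals and 67.0% with voom. ALDH1B1 had the largest value at 0.76 (SE 0.135, limma adjusted p 0.000964): VPA lowered it by 0.97 on the log2 scale without VD3, and the difference with VD3 was -0.20. For ALDH1L1 the interaction was -0.63 (SE 0.118, adjusted p 0.00145), for ALDH2 -0.41 (SE 0.0828, adjusted p 0.00202), for ADH5 0.38 (SE 0.0816, adjusted p 0.00317) and for ALDH3A2 0.35 (SE 0.0928, adjusted p 0.0102). ADH4 had 0.19 (SE 0.207, limma adjusted p 0.488), so a difference in its VPA effect was not shown. ADH1C had -0.63 (SE 0.0655, limma without a filter, adjusted p 0.000197), and this did not hold with voom on recovered fragments (-1.04, SE 0.798, adjusted p 0.298) or with voom and the deposited scaling (-1.20, SE 0.801, adjusted p 0.242).

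**Figure D2:**
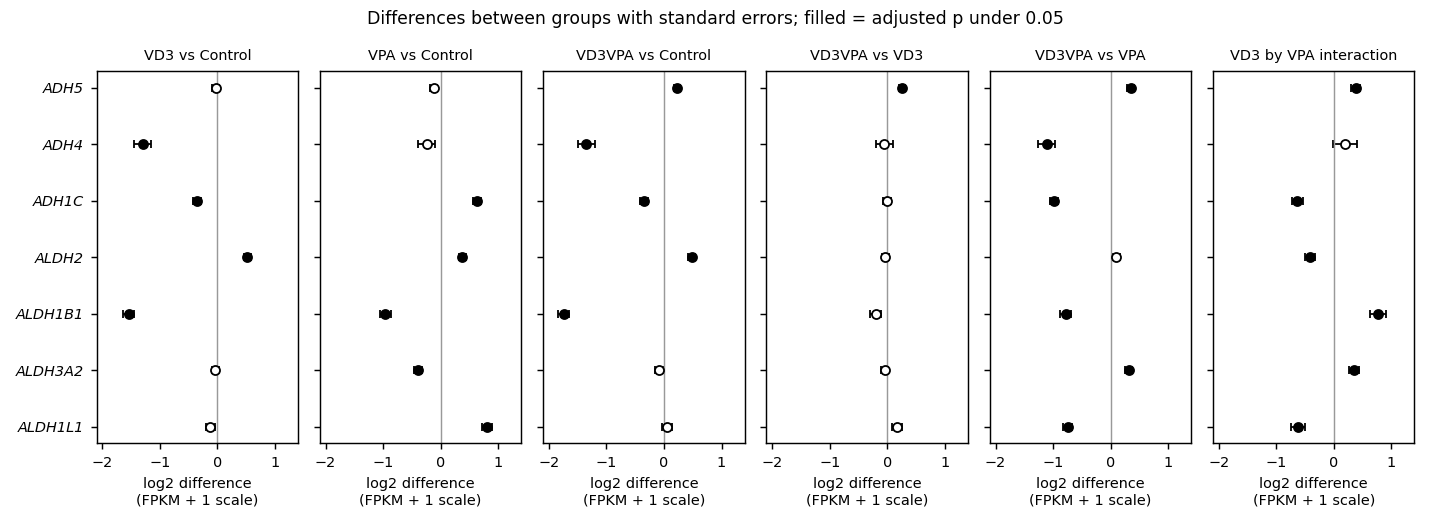
Log2 difference on the log2(FPKM + 1) scale (horizontal axes) of the 7 tested genes in the 5 comparisons of 2 groups and the interaction; bars are standard errors and filled points have a limma adjusted p under 0.05. VD3VPA differs from VD3 alone by a filled point for ADH5 only, whereas ADH4, ADH5 and the aldehyde dehydrogenases except ALDH2 are filled for VD3VPA against VPA; ADH1C, also filled, passed the filter through VPA alone.

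The sums and shares given next rest on the full exon length of each gene. The 4 aldehyde dehydrogenases summed to 48.3 ± 1.64 FPKM in VD3, 50.1 ± 2.73 FPKM in VPA, 47.3 ± 1.75 FPKM in VD3VPA and 47.6 ± 1.66 FPKM in Control (SD, n = 3 each). These ranges overlapped among all groups. ALDH1L1, which rose with VPA, counts for less in this sum than it would over its main transcript of 3179 bases. Whether the overlap holds with other lengths was not tested. ALDH1B1 and ALDH2 together came to 32.9 ± 0.711 FPKM in VD3, 32.1 ± 2.20 FPKM in VPA, 31.6 ± 1.04 FPKM in VD3VPA and 31.5 ± 1.73 FPKM in Control. Within this pair of mitochondrial enzymes the ALDH1B1 share was 9.44% ± 1.65 in VD3, 15.9% ± 1.36 in VPA, 8.07% ± 0.701 in VD3VPA and 34.6% ± 1.80 in Control, so that each treated library had less than the lowest Control library, at 33.1%. The 6 alcohol dehydrogenases summed to 24.5 ± 0.336 FPKM in VD3, 26.1 ± 2.11 FPKM in VPA, 29.3 ± 1.997 FPKM in VD3VPA and 28.1 ± 1.93 FPKM in Control. Its VD3 libraries, at 24.2 to 24.8 FPKM, lay below every VD3VPA library, at 27.5 to 31.4 FPKM, and every Control library, at 26.4 to 30.2 FPKM, and overlapped those of VPA, with no test of the sum. ADH5 made up 96.1% of this sum in VD3, 84.6% in VPA, 97.0% in VD3VPA and 85.8% in Control. ADH4 made up 3.60% in VD3, 11.2% in VPA, 2.77% in VD3VPA and 12.9% in Control, and ADH1C reached 4.09% in VPA against 1.18% in Control.

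**Figure D3:**
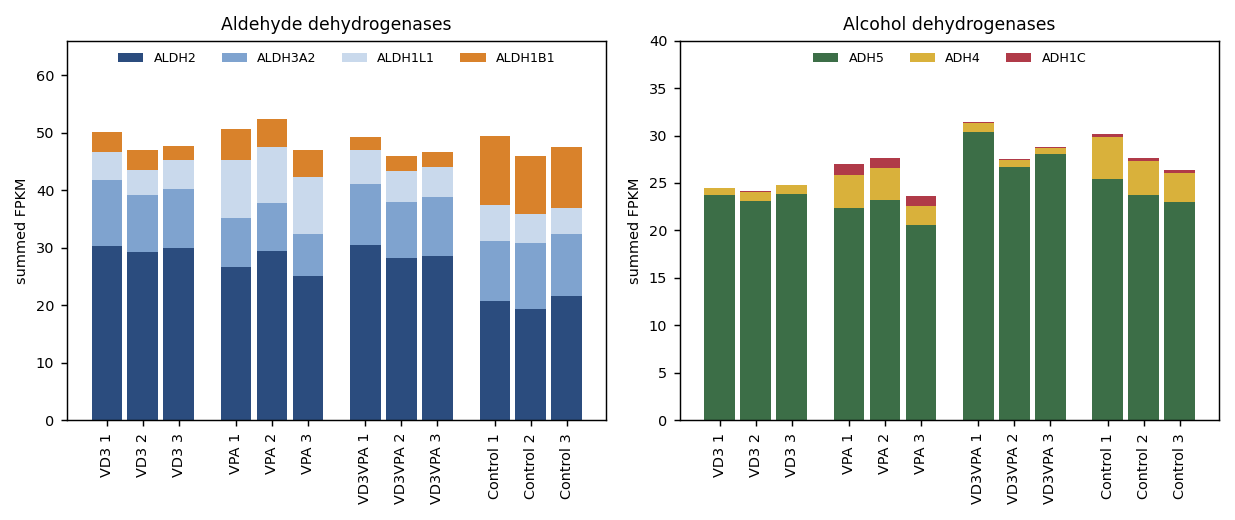
Stacked FPKM (vertical axes, from 0) of the aldehyde dehydrogenases (left) and of the alcohol dehydrogenases above the filter (right) in each of the 12 libraries. The height of the left bars stays between 46.0 and 52.4 FPKM while the ALDH1B1 segment shrinks in the treated groups. On the right, ADH4 and ADH1C are thin in the 6 libraries with VD3. All heights rest on the full exon length of each gene.

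The order of the genes by level changed at the top and in the middle. This order is by FPKM over the full exon length, and other lengths could give other ranks. ALDH2 came first and ADH5 second in VD3, VPA and VD3VPA, with overlapping libraries in VD3VPA, whereas ADH5 came first and ALDH2 second in Control. ALDH1B1 came next in Control, where its libraries overlapped those of ALDH3A2, and it stood below both ALDH3A2 and ALDH1L1 in every treated group. ALDH1L1 stood above ALDH3A2 without overlap in VPA and below it in the other groups. ADH4, ADH1C and ADH6 were the lowest detected members in this order in all 4 groups, and ADH1C and ADH6 overlapped in VD3 and VD3VPA.

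Promoters are shown for ADH4 and ALDH1B1, which were lower with VD3, and for ALDH1L1, which rose with VPA, because their sequences differ in kind. The sequences end at the base before the RefSeq start (GRCh38.p14), or, for ALDH1B1, before the first annotated exon base, and capitals mark matches to the motifs searched.
ADH4 (chr4:99144298-99144547, minus strand): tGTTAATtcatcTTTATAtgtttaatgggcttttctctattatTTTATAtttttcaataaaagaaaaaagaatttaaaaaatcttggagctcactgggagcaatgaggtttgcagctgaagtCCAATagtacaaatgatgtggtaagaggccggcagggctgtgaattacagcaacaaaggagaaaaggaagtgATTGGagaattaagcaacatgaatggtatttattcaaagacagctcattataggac
ALDH1B1 (chr9:38392452-38392663, plus strand): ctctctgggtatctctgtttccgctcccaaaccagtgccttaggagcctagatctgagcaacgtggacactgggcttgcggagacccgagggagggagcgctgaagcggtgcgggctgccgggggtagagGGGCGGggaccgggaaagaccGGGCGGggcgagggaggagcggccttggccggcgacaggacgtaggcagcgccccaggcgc
ALDH1L1 (chr3:126181187-126181436, minus strand): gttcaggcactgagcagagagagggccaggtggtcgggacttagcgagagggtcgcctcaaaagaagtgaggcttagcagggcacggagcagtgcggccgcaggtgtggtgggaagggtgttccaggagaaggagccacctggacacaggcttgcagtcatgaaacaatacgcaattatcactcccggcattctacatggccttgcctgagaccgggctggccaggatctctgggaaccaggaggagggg
The motifs were the TATA box core TATAAA, the SP1 core GGGCGG, the CCAAT box, GTTAAT as part of an HNF1 site, the nuclear receptor element AGGTCA, its variant GGTTCA, part of a C/EBP site spelled TTGCGCA, the antioxidant element TGANNNNGC and the E box CACGTG. They were searched on both strands in the 250 bases before the start, and 9 of the 10 members had an entry. The ADH4 promoter held 34.0% G and C, at percentile 4.36 of the 35116 promoters in the table, and 1 CpG, whereas the 250 bases of ALDH1B1 held 70.4% and 23 CpG and those of ALDH1L1 60.0% and 9 CpG. ADH4 had TATAAA in reverse orientation at 2 places, CCAAT at 2 and GTTAAT at 1. The TATAAA matches began at -238 and -207 from the start. TATAAA is in 10.7%, CCAAT in 32.0% and GTTAAT in 6.23% of all promoters. These promoters have a median of 58% G and C and were not matched to the low share of ADH4, so the shares do not show that its matches are rare. ALDH1B1 had GGGCGG at 2 places, and this motif is in 42.6% of all promoters. It also had CCAAT at 1 place in the bases that are not shown. ALDH1L1 had none of the 9 motifs in this window, which says only that these letters are not there. The 250 bases before a second RefSeq start of ALDH1L1 held 65.2% G and C, 20 CpG, GGGCGG at 4 places and TATAAA and AGGTCA at 1 place each, all in reverse orientation, and are not shown because they lie inside annotated exons. AGGTCA is in 12.1% of all promoters.

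Genes whose profile was nearest to a member were sought for ADH4 and ALDH1B1, the members whose group means span at least 1 on the log2 scale. Nearness was the root mean square difference of centred log2(FPKM + 1) values over the 12 libraries. For ADH4 the nearest were UGT2B7, a glucuronosyltransferase, at 0.141, SSUH2 at 0.155 and DDC, the aromatic amino acid decarboxylase, at 0.163. UGT2B7 had 34.8 FPKM in VD3, 83.8 FPKM in VPA, 34.4 FPKM in VD3VPA and 89.98 FPKM in Control. For ALDH1B1 the nearest were SRM, the spermidine synthase, at 0.132, and the nucleolar protein genes NOP56 at 0.169 and NOLC1 at 0.174. SRM had 9.22 FPKM in VD3, 14.2 FPKM in VPA, 8.89 FPKM in VD3VPA and 31.8 FPKM in Control.

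Of the other aldehyde dehydrogenases, 8 of 15 listed genes were tested. VD3 lowered 4 and raised 0 of these 8 relative to Control (median log2 difference -0.17, against 0.00037 over all tested genes), or lowered 5 with equal FPKM sums and 6 with own fragment totals or voom. Of all tested genes 31.2% were lower and 31.3% higher in VD3, 29.6% higher and 23.1% lower in VPA, and 31.1% higher and 33.1% lower in VD3VPA. In the list VPA raised 3 and lowered 2 (median 0.13, against 0.01 over all), and VD3VPA raised 3 and lowered 4 (median -0.20, against -0.01). The largest change was in ALDH1A1, a cytosolic enzyme that makes retinoic acid, with 7.87 ± 0.518 FPKM in VD3, 46.1 ± 1.21 FPKM in VPA, 11.9 ± 0.483 FPKM in VD3VPA and 30.3 ± 1.74 FPKM in Control. It fell 3.84-fold with VD3 (log2 difference -1.82, SE 0.0548, limma adjusted p 5.41e-10) and 2.54-fold with VD3VPA (log2 difference -1.28, adjusted p 4.77e-09), and rose 1.52-fold with VPA (log2 difference 0.59, adjusted p 5.63e-06). ADHFE1, a mitochondrial transhydrogenase of hydroxy acids, rose 2.12-fold with VD3 and 2.03-fold with VD3VPA relative to Control, and ADH7, the stomach alcohol dehydrogenase, was at 0 throughout.

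The enzymes that share formaldehyde removal with ADH5, or folate with ALDH1L1, were mostly lower with VD3. Of 17 listed genes 15 were tested, and VD3 lowered 12 and raised 2 relative to Control, where 31.2% of all tested genes were lower and 31.3% higher (median log2 difference -0.37, against 0.00037 over all tested genes). VD3VPA lowered 10 and raised 2, beside 33.1% and 31.1% of all tested genes (median -0.32, against -0.01). VPA lowered 7 and raised 4, beside 23.1% and 29.6% of all tested genes (median -0.11, against 0.01), or 9 and 3 with equal FPKM sums, own fragment totals or voom. ESD, the esterase that completes the formaldehyde reaction begun by ADH5, had 7.92 ± 0.318 FPKM in VD3, 15.4 ± 0.325 FPKM in VPA, 9.85 ± 0.0459 FPKM in VD3VPA and 12.7 ± 0.831 FPKM in Control. It fell 1.60-fold with VD3 (limma adjusted p 6.13e-07) and 1.29-fold with VD3VPA (adjusted p 7.44e-05) and rose 1.22-fold with VPA (adjusted p 0.000594). MTHFD1, which makes the formyl-tetrahydrofolate that ALDH1L1 consumes, fell 2.65-fold with VD3 and 2.47-fold with VD3VPA relative to Control. Its mitochondrial relative MTHFD1L fell 2.77-fold with VD3, 2.10-fold with VPA and 2.91-fold with VD3VPA. MTHFD2 fell 3.01-fold with VPA and 2.44-fold with VD3VPA. With VD3 it was also lower, at 0.891 to 1.14 FPKM against 1.54 to 2.20 FPKM in Control libraries. SHMT1, the cytosolic serine hydroxymethyltransferase, rose 2.71-fold with VPA (25.2 ± 2.85 FPKM in VPA and 9.29 ± 2.35 FPKM in Control, SD, n = 3 each; limma adjusted p 1.98e-05), in the group where ALDH1L1 was also highest.

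**Figure D4:**
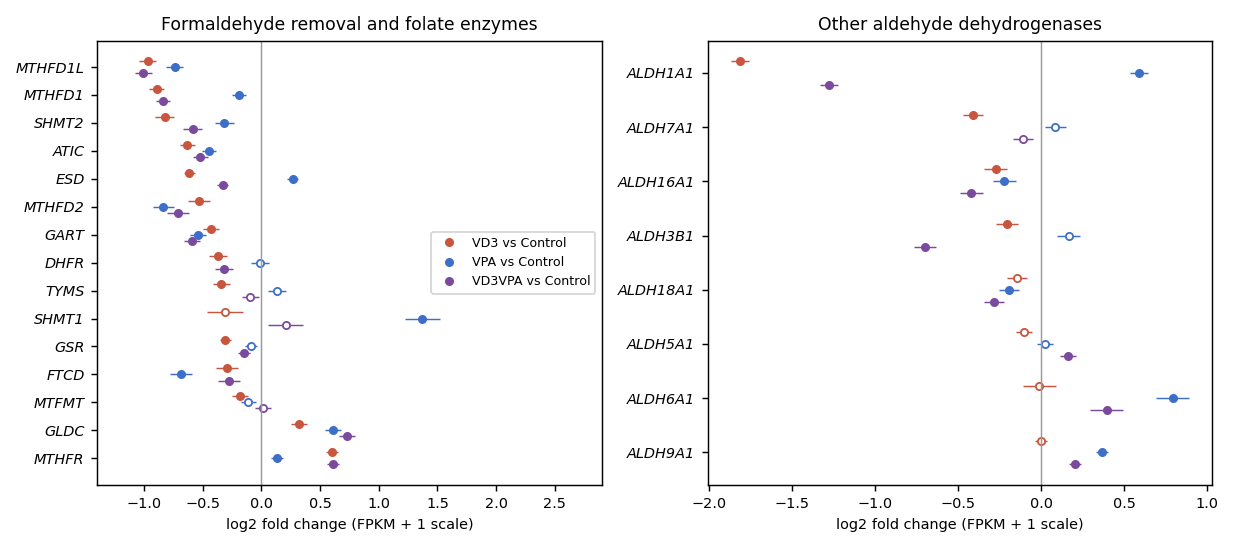
Log2 fold change against Control (horizontal axes, log2(FPKM + 1) scale) of 15 formaldehyde and folate genes and of 8 other aldehyde dehydrogenases with VD3, VPA and VD3VPA; bars are standard errors and filled points have a limma adjusted p under 0.05. Most folate genes lie left of 0 with VD3 and VD3VPA, SHMT1 stands at 1.37 with VPA, and ALDH1A1 stands at -1.82 with VD3.

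Among 6 genes of ethanol oxidation, acetate use and acetyl-CoA supply, 5 were tested. CYP2E1, the liver ethanol oxidase of the endoplasmic reticulum, stayed at 0.0242 to 0.0400 FPKM on group average. VPA raised all 5 relative to Control, where 29.6% of all tested genes were higher (median log2 difference 0.52, against 0.01 over all tested genes). VD3 raised 3 and lowered 2, beside 31.3% and 31.2% of all tested genes (median 0.37, against 0.00037), and VD3VPA raised 4 and lowered 1, beside 31.1% and 33.1% (median 0.48, against -0.01). Catalase (CAT), which can also oxidise ethanol, rose 1.33-fold with VD3, 1.73-fold with VPA and 1.90-fold with VD3VPA. ACSS1, the mitochondrial enzyme that activates acetate, had 1.67 ± 0.182 FPKM in VD3, 10.3 ± 1.08 FPKM in VPA, 2.70 ± 0.261 FPKM in VD3VPA and 4.21 ± 0.278 FPKM in Control. It rose 2.45-fold with VPA (log2 difference 1.12, limma adjusted p 8.49e-07) and fell 2.53-fold with VD3 (log2 difference -0.97, adjusted p 1.04e-06). ACLY, which makes acetyl-CoA from citrate, rose 2.35-fold with VD3VPA (log2 difference 1.22, adjusted p 2.76e-09).

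Of 10 genes of the metabolism around fatty aldehydes, the substrates of ALDH3A2, AGMO passed the filter through VD3VPA alone and is left out of the counts. Of the other 9, VD3 raised 3 and lowered 3, VPA raised 3 and lowered 2, and VD3VPA raised 4 and lowered 3 relative to Control, beside 31.3% higher and 31.2% lower of all tested genes for VD3, 29.6% and 23.1% for VPA, and 31.1% and 33.1% for VD3VPA. Their median log2 difference was -0.01 for VD3, 0.09 for VPA and -0.03 for VD3VPA, and for VD3VPA it was 0.14 with AGMO. SGPL1, which releases the hexadecenal that ALDH3A2 oxidises, rose 1.67-fold with VD3 (limma adjusted p 2.89e-05) and 1.41-fold with VD3VPA (adjusted p 0.000654). AGMO, which opens ether lipids to fatty aldehydes, had 0.490 FPKM in VD3, 0.395 FPKM in VPA, 1.18 FPKM in VD3VPA and 0.291 FPKM in Control. Of 16 transcription factors known to act on these gene families in liver and gut, VD3 raised 7 and lowered 5, VPA raised 3 and lowered 5, and VD3VPA raised 6 and lowered 5. The share of all tested genes was 31.3% higher and 31.2% lower for VD3, 29.6% and 23.1% for VPA, and 31.1% and 33.1% for VD3VPA. The median log2 difference of the factors was 0.12 for VD3, -0.07 for VPA and 0.01 for VD3VPA, against 0.00037, 0.01 and -0.01 over all tested genes, and VPA raised 2 and lowered 8 with own fragment totals or voom. CEBPB rose 2.49-fold with VD3 and 3.13-fold with VD3VPA. With VD3VPA, PPARA rose 2.15-fold and PPARG fell 2.11-fold. PPARA averaged 6.38 FPKM in VD3 and 5.17 FPKM in VPA, against 3.87 FPKM in Control. PPARG averaged 2.25 FPKM in VD3 and 1.93 FPKM in VPA, against 3.11 FPKM in Control.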

How the data were processed

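RNA of 12 libraries, 3 per group, was poly-A selected, and a NEBNext Ultra kit was used for library preparation, per the labels' protocols. The build was GRCh38.p13, and the tools were featureCounts 1.5.0-p3, HISAT2 2.0.5 and DESeq2 1.20.0, per the submitters' processing notes. The strand setting and what each tool did were not given in the sources used here. Deposited by the authors, the table holds FPKM per gene and library and gene lengths, per the file headers. Its 58735 genes matched GENCODE release 29 in identifier, start and end.

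FPKM times gene length, divided by 1 constant per library, gave whole fragments for 100% of values within 0.01. They gave depths of 32160289 to 43998467, exact 95% counting intervals and a limit of 3 fragments for a count of 0. Libraries of 1 group differed beyond counting noise (mean chi-square per gene 3.4 to 17.0), which does not show whether they were separate cultures. Each library was treated as 1 sample.

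The main fit was limma 3.58.1 (R 4.3.3) on log2(FPKM + 1), with group means over 12 libraries and a trended prior, for the 12578 genes that reached 1 FPKM in 3 or more libraries. Benjamini-Hochberg adjustment ran over all tested genes within a comparison. ADH1C and AGMO passed through 1 group alone and stay out of the counts, and ADH1C is tested in the same fit without a filter. No count model was the main test, since the deposited unit is FPKM. The step was run on simulated counts with known changes and the same fixed spread for all genes. That run checks the code and does not show how well the fit suits these libraries. Alternatives changed pseudocount, filter, scaling, prior, groups fitted and replicate block, left out each library, or used voom. Voom with the deposited scaling was added after seeing the data.

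The 10 members, the gene lists, the markers and the tests were chosen with earlier results of these data known. Named from the lists were genes with an adjusted p under 0.05 and at least a 2-fold change in mean FPKM against Control, up to 5 a list by size, and genes that share a reaction with a member. Promoters are from the RefSeq table and coding sequences from GENCODE release 29, read with Biopython 1.88. Tables and figures used Python 3.11.15 with matplotlib 3.10.9, SciPy 1.17.1, pandas 2.3.3 and numpy 2.4.6.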

Additional observations from a re-analysis of the deposited data

Results flagged for a closer look

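For 5 of the 6 tested members other than ADH1C the VPA effect differed with VD3 present, by the interaction term of the limma fit on log2(FPKM + 1). ALDH1L1 had an interaction of -0.63, with a VPA effect of 0.17 (VD3VPA minus VD3) in the presence of VD3 and 0.80 (VPA minus Control) without it. ALDH2 had -0.41, with -0.04 in the presence of VD3 and 0.38 without it. In both genes VPA raised the level without VD3 and had no effect past the threshold with it. ADH1C had -0.63, with -0.0030 in the presence of VD3 and 0.63 without it, but it passed the filter through VPA alone, so a difference was built in, and the interaction did not pass under either voom fit (adjusted p 0.298 and 0.242).

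ALDH1B1 had an interaction of 0.76, with -0.20 in the presence of VD3 and -0.97 without it. ALDH3A2 had 0.35, with -0.05 in the presence of VD3 and -0.40 without it. ADH5 had 0.38, with 0.26 in the presence of VD3 and -0.12 without it, and the difference in the presence of VD3 passed the threshold while the other passed it only under 3 other scalings. A share of 44.3% of all tested genes passed the same test.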

How the results depend on the processing

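Over 22 other settings (21 for the interaction), 893 values of single members kept their direction and their side of the threshold, 13 gained the threshold, 2 lost it and 9 turned direction. The 9 that turned were not past the threshold in either setting. ADH1C for VD3VPA against VD3 became 0.031 with a pseudocount of 0.1, 0.50 with voom, 0.47 with voom and the deposited scaling, 0.039 without VD3 replicate 2 and 0.0079 without VD3VPA replicate 3, and with single libraries left out it ranged from -0.036 to 0.039. ADH5 for VD3 against Control became 0.0085 without Control replicate 1 (range -0.060 to 0.0085), ALDH1L1 for VD3VPA against Control -0.037 without Control replicate 3 (range -0.037 to 0.158), ALDH3A2 for VD3VPA against VD3 0.0090 without VD3 replicate 1 (range -0.086 to 0.0090) and ALDH3A2 for VD3 against Control 0.0029 without VD3 replicate 2 (range -0.092 to 0.0029). The 2 lost were the ADH1C interaction under both voom fits. The cause was not tested.

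Of the counts of changed members, which here include ADH1C, 128 stayed within 1.5 times. The count for VD3VPA against VD3 moved to 2 with voom and ranged from 1 to 2 when single libraries were left out. With the replicate number as a block, the counts against Control were 4 for VD3, 5 for VPA and 5 for VD3VPA. They were 1 for VD3VPA against VD3, 6 for VD3VPA against VPA and 6 for the interaction, as without the block. In the same order, 61.8%, 52.1%, 63.8%, 33.7%, 62.7% and 43.3% of all tested genes changed with the block. The replicate numbers were not treated as pairs. Same-numbered libraries had correlations of -0.083 to 0.152 between their deviations over 18 pairs, 3 of them over 0.1. Of 12 libraries, 5 were nearest to their own number.

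The median of all genes moved by over 0.1 under voom, by -0.12 for VPA against Control and 0.16 for the interaction, and under own fragment totals by 0.13 for the interaction. Relative to the median of all genes, ADH5 stood at -0.15 in VPA with voom. Depth limits ADH1C (10 fragments in VD3 and 9 in VD3VPA) and ADH6 (5 to 15 fragments per group), and says nothing firmer of ADH1A and ADH1B than their limits.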

Other observations

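The genes on both sides of the alcohol dehydrogenase cluster did not share 1 pattern. METAP1, the nearest tested gene on the ADH5 side, lies on the opposite strand to ADH5. It had 10.5 FPKM in VD3, 7.73 FPKM in VPA, 11.9 FPKM in VD3VPA and 9.22 FPKM in Control. Its log2 difference from Control was 0.17 in VD3, -0.23 in VPA and 0.34 in VD3VPA, all past the threshold in limma. On the far side, beyond ADH7, MTTP, which loads lipid onto lipoproteins, had 46.0 FPKM in VD3, 64.6 FPKM in VPA, 74.3 FPKM in VD3VPA and 51.7 FPKM in Control. Of 24 annotated genes within 250000 bases of the cluster or inside it, 8 were tested, among them ADH5, ADH4 and ADH1C. The antisense gene AP002026.1, which runs across ADH4, ADH6 and ADH1A, stayed at or below 0.136 FPKM in every library.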
